A study of Gallus gallus with 15 samples.

Results

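Gene expression in the liver of Hwangbong chickens, a native breed of Korea, was compared with that of White Leghorn, the egg-laying breed that served as the control. The comparison took all samples whose labels name the breed Hwangbong (Hw) or White Leghorn (WL), which gave 6 of the 15 arrays of the study, 3 birds of each breed with 1 array per bird. A positive change means a higher level in Hwangbong. The birds were 13-week-old males that had hatched from fertilized eggs of local farms and were fed freely on 1 farm, with no genetic change or drug treatment named for either breed. The other 9 arrays, 3 each of Yeonsan Ogye (Og), Hyunin Black (Bl) and Hoengseong Yakdak (Ya), entered the model for the estimate of the spread between birds. Birds are named by breed code and replicate number, as in Hw 2. Nothing in the labels says how the birds of a breed are related, so a difference between the breeds and a difference between the flocks the eggs came from cannot be told apart.

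The liver of a bird makes most of the body's fat and the plasma lipoproteins that carry it. It also breaks down amino acids, disposes of nitrogen as uric acid, modifies hormones and foreign compounds for excretion and secretes clotting and complement proteins. Resident macrophages and sinus-lining endothelial cells sit among the hepatocytes and sense microbial products arriving from the gut.

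Levels are log2 values made by robust multi-array averaging (RMA), so a change of 1 is a doubling of array signal. Of 18308 features on the array, 106 passed at an adjusted p under 0.05 in limma, with Benjamini-Hochberg adjustment over all features, which is 0.579% of those tested. Of these, 62 were higher in Hwangbong (0.339%) and 44 were lower (0.24%). Exactly 1 gene symbol was attached to 71 of them, of which 40 rose and 31 fell. A change over 1 in size was seen for 31 of the higher and 26 of the lower features, and the median size was 1.04 among passing features against 0.14 over all features. In 106 of 106 passing features the 3 birds of one breed all lay on one side of the 3 birds of the other, whereas 18.7% of all features had that property. The calls and this separation come from the same values, so the separation adds no support to the calls. For 27 passing features the mean of at least 1 of the breeds lay under 5.21, the bound below which the lowest 1 in 3 of feature means fall, where the files do not show whether signal exceeded array background.

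**Figure D1:**
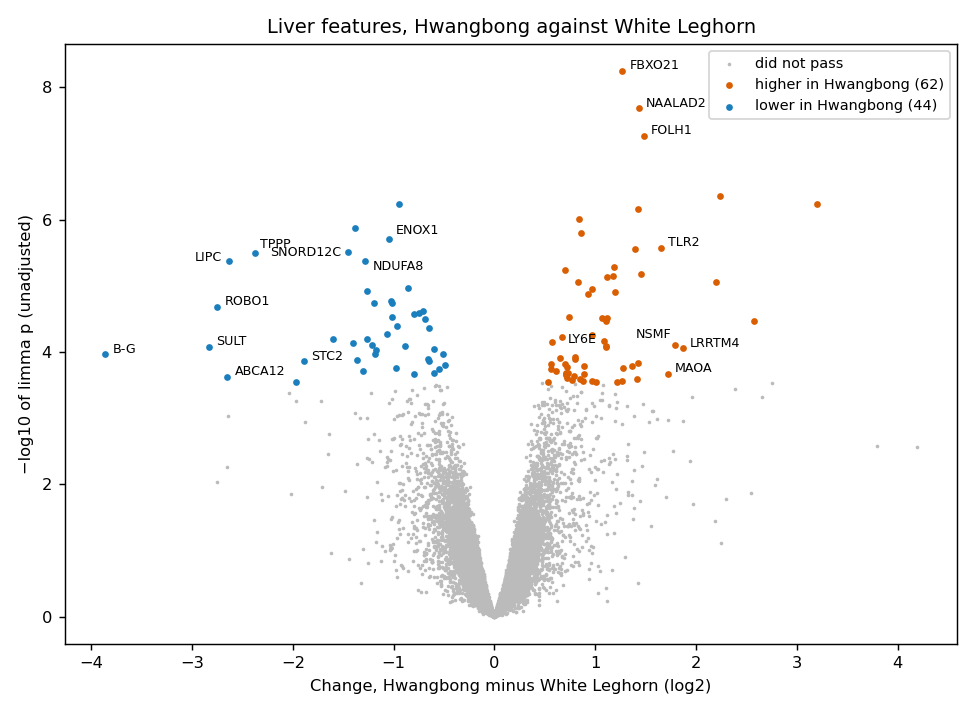
Change between breeds (x axis, Hwangbong minus White Leghorn, log2) against the unadjusted limma p of each feature (y axis, −log10), with features past an adjusted p under 0.05 in colour. The 62 higher features include FBXO21, NAALAD2 and FOLH1 at the top, and the 44 lower features include B-G, SULT, ROBO1, ABCA12 and LIPC at the far left.

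The 6 arrays were alike in overall level, with medians between 6.14 and 6.16. Correlations across features lay between 0.987 and 0.991 within Hwangbong, between 0.983 and 0.99 within White Leghorn and between 0.978 and 0.985 from one breed to the other. The tissue label fitted its markers: the mean level of 16 measured hepatocyte genes lay between 11.71 and 11.84 in every bird, although RBP4 and CPS1 of that list were low, with CPS1 between 4.99 and 5.59. None of the 16 passed. The mean of 17 pancreas and gut genes lay between 4.86 and 5.04, and that of 10 skeletal muscle and adipose genes between 4.5 and 4.98. Calls depended on which arrays entered the fit. Leaving out each of the 15 arrays in turn gave between 40 and 127 passing features, and 30 of the 106 passed in all 15 such fits. A fit without a Hwangbong or White Leghorn array has 1 bird fewer in that breed. Whether a call was lost there through fewer birds or through the bird left out was not tested. Across the 15 fits the change stayed between 1.7 and 1.89 for NSMF and ran from -4.99 to -3.19 for B-G, and both lost their call in some. Dropping WL 1 gave 57 and dropping WL 3 gave 67, while 40 passed when Hw 2 was dropped and 59 when Hw 3 was. With the 6 arrays of the 2 breeds alone, 40 features passed, of which 31 were among the 106. Of the 33 genes taken by the naming rule, 19 missed the threshold there, at adjusted p from 0.0535 for TLR2 to 0.192 for MGST2. These were LRRTM4, MAOA, TLR2, CHIR-B6, NMRK1, MGST2, CD69L, MIR1719, UBASH3A, ALDH7A1, RALGPS1, ENOX1, PIGP, RAB23, NXPH2, ADAMTS17, STC2, ABCA12 and B-G. Of the genes described below outside that rule, NFASC (0.0779), SMARCD2 (0.146), LONP2 (0.0703), F3 (0.121) and MYO9A (0.138) missed it too. After further quantile normalisation CHIR-B6 (0.0549), UBASH3A (0.055), ABCA12 (0.0514), SMARCD2 (0.0615) and MYO9A (0.0549) missed it.

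Among genes of lipid transport, hepatic lipase was lower in Hwangbong. LIPC encodes the liver-secreted enzyme that hydrolyses triglycerides and phospholipids of circulating lipoproteins. Its level was 9.08, 8.98 and 9.15 in WL 1 to 3 and 7.04, 6.31 and 5.96 in Hw 1 to 3. The groups were far apart and the Hwangbong birds varied more among themselves. LIPC fell by 2.63 ± 0.36 (SE of the model, n = 3 birds per breed, adjusted p = 0.00459 by limma), a 6.18-fold difference, and passed in all 15 fits that left out an array and with the 6 arrays alone (adjusted p = 0.0129). It was the single passing gene among 24 measured genes of lipases and lipoprotein handling. Of these, 16 lay above 0 and 8 below, with a median change of 0.1 beside -0.0124 over all features. Lipoprotein lipase, LPL, which acts in other tissues, was at 8.1, 7.83 and 7.79 in White Leghorn and 7.55, 8.82 and 8.13 in Hwangbong, with overlapping birds and an adjusted p of 0.87.

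Enzymes of conjugation and oxidation moved in both directions. A feature annotated only as SULT, a cytosolic sulfotransferase of the family that attaches sulfate to hormones and foreign compounds, was at 10.32, 11.6 and 11.42 in White Leghorn and 8.48, 8.44 and 7.94 in Hwangbong. The birds of the breeds did not overlap. SULT fell by 2.83 ± 0.52 (adjusted p = 0.0261 by limma). The call was lost without WL 2, WL 3 or any single Hwangbong array, at an adjusted p of up to 0.0981. Sulfotransferases are a family of similar genes, and probes shared between copies were not examined.

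MAOA, monoamine oxidase A, which oxidises serotonin and noradrenaline, was at 6.84, 7.53 and 8.3 in White Leghorn and 8.51, 9.67 and 9.65 in Hwangbong. The highest White Leghorn bird lay just under the lowest Hwangbong bird. MAOA rose by 1.72 ± 0.35 (adjusted p = 0.0435 by limma), but it passed in only 4 of the 15 fits that left out an array, those without WL 3, Og 1, Og 2 or Hw 1. The adjusted p reached 0.164 in the others, was 0.176 with the 6 arrays alone and was 0.0531 with trended, robust variance moderation. ALDH7A1, an aldehyde dehydrogenase of lysine breakdown, was between 10.77 and 10.89 in White Leghorn and between 10.23 and 10.37 in Hwangbong, a fall of 0.51 ± 0.1 (adjusted p = 0.0308). This call was lost without any 1 of the 6 arrays, at an adjusted p of up to 0.101. These were the passing genes among 12 measured for monoamine and aldehyde oxidation, 1 higher and 1 lower. DDC, which makes serotonin and dopamine from their amino acid precursors, did not pass: it was at 8.78, 8.93 and 9.24 in White Leghorn and 9.53, 9.97 and 9.95 in Hwangbong, with a change of 0.83 ± 0.2 and an adjusted p of 0.0846.

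MGST2, a microsomal glutathione transferase that also makes leukotriene C, was between 3.9 and 5.19 in White Leghorn and between 5.38 and 6.21 in Hwangbong. It rose by 1.28 ± 0.25 (adjusted p = 0.0392) and passed only in the fits without WL 2, Og 1 or Hw 1, at an adjusted p of up to 0.148 otherwise. With SULT it made up the passing genes, 1 higher and 1 lower, of 32 measured sulfotransferases and foreign-compound enzymes, whose median change was -0.06. NMRK1, a nicotinamide riboside kinase of the NAD salvage route, was at 6.02, 6.12 and 5.58 in White Leghorn and 7.53, 7.59 and 6.69 in Hwangbong. NMRK1 rose by 1.36 ± 0.27 (adjusted p = 0.0381), and its adjusted p was up to 0.148 without any White Leghorn array, Og 3, Bl 3, Hw 1 or Hw 2.

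A pair of related peptidase genes rose by nearly the same amount. FOLH1 and NAALAD2 encode membrane carboxypeptidases that release glutamate from small peptides, and FOLH1 also trims folate polyglutamates. FOLH1 was at 5.54, 5.59 and 4.98 in White Leghorn and 6.94, 6.82 and 6.78 in Hwangbong. NAALAD2 was at 5.54, 5.3 and 5.17 in White Leghorn and 6.83, 6.67 and 6.81 in Hwangbong. Hwangbong birds lay within a narrow band for both genes, above every White Leghorn bird. FOLH1 rose by 1.48 ± 0.14 (adjusted p = 0.000332 by limma) and NAALAD2 by 1.43 ± 0.13 (adjusted p = 0.000191). Both passed in all 15 fits that left out an array and with the 6 arrays alone, at adjusted p of 0.0263 and 0.0104. In the RefSeq gene order of the assembly GRCg7b they are neighbours, with 0 coding genes between them. The same gene order placed 64 of the passing single-symbol genes, and the only other pair with at most 4 coding genes between them was LOC424014 and ABCA12, with 3. Because the 2 peptidases are related in sequence, signal shared between their probes cannot be told apart from signal of each gene.

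FBXO21, a substrate-binding part of a ubiquitin ligase, had the smallest p among the named genes. Its level was 6.77, 6.65 and 6.93 in White Leghorn and 8.06, 8.1 and 8.01 in Hwangbong. It rose by 1.27 ± 0.1 (adjusted p = 0.000104) and passed in all 15 fits and with the 6 arrays alone. EEF1AKMT1, a methyltransferase of the translation elongation factor eEF1A, was between 6.39 and 6.52 in White Leghorn and between 7.53 and 7.75 in Hwangbong, a rise of 1.19 ± 0.17 (adjusted p = 0.00519) that also passed in all 15 fits. PEX5L, a relative of the peroxisomal import receptor that binds ion channels in the mammalian brain, was low in both breeds, with 3.85, 3.74 and 4.05 in White Leghorn and 5.51, 4.99 and 5.3 in Hwangbong. PEX5L rose by 1.39 ± 0.18 (adjusted p = 0.00388) and passed in all 15 fits.

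**Figure D2:**
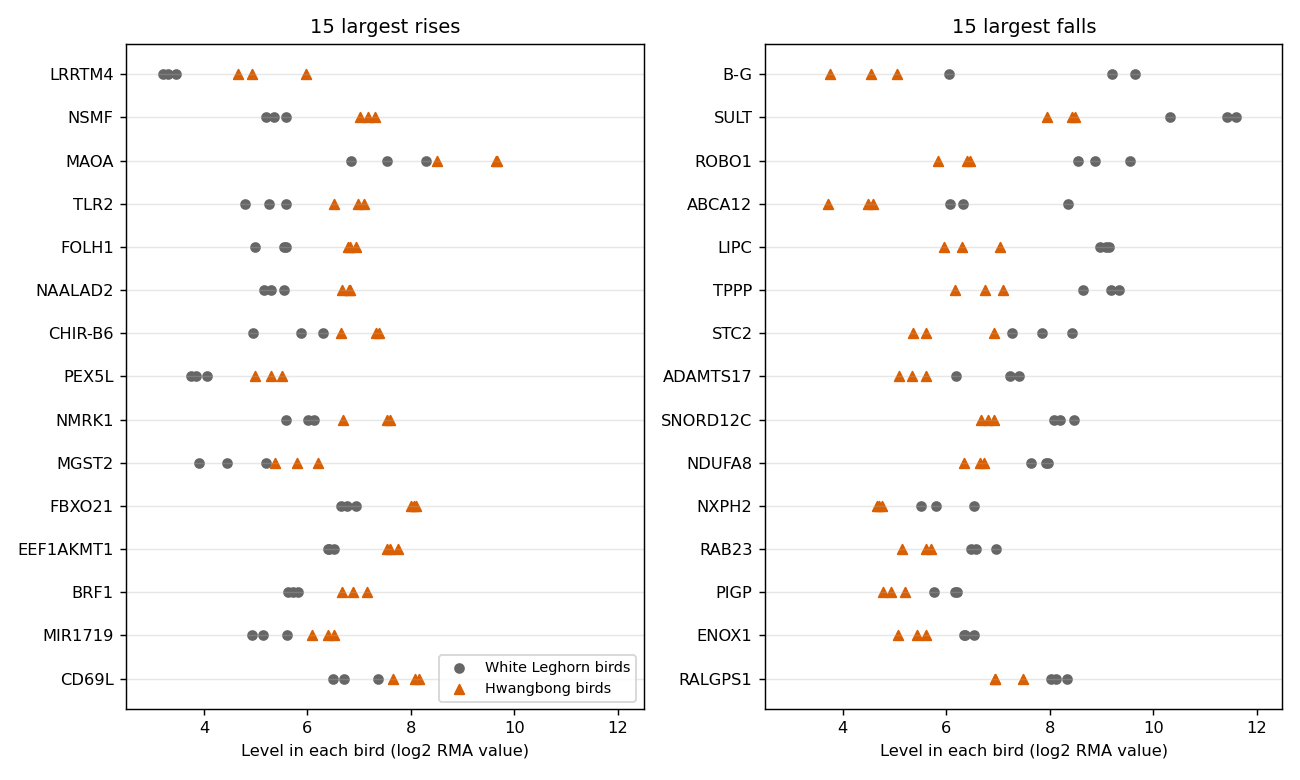
Level in each bird (x axis, log2 RMA value) for the 15 largest rises and the 15 largest falls among passing features with a single gene symbol, bare locus names excluded, with circles for the 3 White Leghorn birds and triangles for the 3 Hwangbong birds. The groups do not overlap for any of the 30 genes because the rule that chose them required it. The spread within a breed is wide for B-G and ABCA12 in White Leghorn and narrow for FBXO21, NAALAD2 and SNORD12C.

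Genes better known for wiring of the nervous system than for liver function were among the largest changes in both directions. ROBO1, the receptor for Slit guidance proteins, was at 8.87, 9.55 and 8.55 in White Leghorn and 5.84, 6.41 and 6.46 in Hwangbong. No bird came near the other group. ROBO1 fell by 2.75 ± 0.44 (adjusted p = 0.0116 by limma), passed in all 15 fits that left out an array and passed with the 6 arrays alone (adjusted p = 0.0166).

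NXPH2, a secreted ligand of neurexins, was between 5.51 and 6.54 in White Leghorn and between 4.66 and 4.75 in Hwangbong, and fell by 1.26 ± 0.22 (adjusted p = 0.0233). Its call was lost without WL 1 or any Hwangbong array, at an adjusted p of up to 0.096. LRRTM4, a postsynaptic adhesion protein, was at 3.46, 3.3 and 3.2 in White Leghorn, near the bottom of the scale, and at 5.98, 4.92 and 4.65 in Hwangbong. LRRTM4 rose by 1.87 ± 0.34 (adjusted p = 0.027), and the adjusted p was up to 0.0904 without any White Leghorn array, Hw 1 or Hw 2. NSMF, which carries signals from synapse to nucleus in mammalian neurons, was between 5.19 and 5.58 in White Leghorn and between 7.01 and 7.3 in Hwangbong, a rise of 1.79 ± 0.32 (adjusted p = 0.0261). NSMF lost its call without any 1 of the 6 arrays (adjusted p up to 0.0951) and kept it with the 6 arrays alone (0.00695). The list of 40 measured axon guidance and synaptic adhesion genes held 2 that rose and 2 that fell, beside 0.339% and 0.24% of all features. This list counts NSMF, a messenger from synapse to nucleus, and does not hold NFASC, described below. The list was chosen with earlier results of these data known, so these calls cannot show that such genes changed as a group. The list had 20 genes on each side of 0, and its members lay at both ends, from -2.75 to 1.87. By limma 6 of the 40 had an unadjusted p under 0.05, beside 12.9% of all features. In 3 every Hwangbong bird lay above every White Leghorn bird, and in 3 every one lay below, beside 9.3% and 9.42% of all features. NFASC, a cell adhesion protein of axons, was between 5.9 and 6.46 in White Leghorn and between 4.96 and 5.31 in Hwangbong. It fell by 1.02 ± 0.16 (adjusted p = 0.0103) and its call was lost only without Hw 2 (adjusted p = 0.062).

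A microtubule protein, a secreted hormone-like factor, a matrix protease and a lipid transporter fell. TPPP, a promoter of microtubule assembly, was at 9.18, 9.33 and 8.65 in White Leghorn and 7.09, 6.75 and 6.17 in Hwangbong. It fell by 2.38 ± 0.32 (adjusted p = 0.00388) and passed in all 15 fits and with the 6 arrays alone. STC2, stanniocalcin 2, a secreted glycoprotein that in human and mouse restrains the protease that frees insulin-like growth factors, was at 8.44, 7.27 and 7.86 in White Leghorn. In Hwangbong it was at 5.36, 5.6 and 6.93, so that Hw 3 lay close to WL 2. STC2 fell by 1.89 ± 0.36 (adjusted p = 0.0352), and it failed to pass when WL 1 or WL 3, Hw 1 or Hw 2, or Bl 3 was dropped, at an adjusted p of up to 0.142. It was the single passing gene among 24 measured in the growth hormone and insulin-like growth factor axis, of which 12 lay above 0 and 12 below. It was also the single passing gene among 25 of endoplasmic reticulum stress and folding, of which 19 lay above 0.

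ADAMTS17, a secreted metalloprotease of the matrix, was at 6.19, 7.23 and 7.4 in White Leghorn and 5.09, 5.61 and 5.34 in Hwangbong. It fell by 1.6 ± 0.28 (adjusted p = 0.0233), with an adjusted p of up to 0.0855 without WL 2, WL 3 or any Hwangbong array. It was the single passing gene of 32 measured collagen, laminin and matrix protease genes. ABCA12, a lipid transporter known from skin barrier formation in mammals, was at 8.36, 6.32 and 6.07 in White Leghorn and 4.48, 4.59 and 3.71 in Hwangbong. WL 1 stood well above the other White Leghorn birds. ABCA12 fell by 2.65 ± 0.54 (adjusted p = 0.0453) but passed only in the fits without WL 3, Og 1 or Ya 1, with an adjusted p of up to 0.169 in the others and of 0.0657 with trended, robust variance moderation. It was the single passing gene of 30 measured ATP-binding cassette transporters, of which 19 lay above 0.

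Among respiratory chain genes 1 passed. NDUFA8, a subunit of complex I, was at 7.97, 7.93 and 7.64 in White Leghorn and 6.65, 6.72 and 6.34 in Hwangbong. It fell by 1.28 ± 0.18 (adjusted p = 0.00459) and passed in all 15 fits and with the 6 arrays alone (adjusted p = 0.0263). It was the single passing gene of 31 measured complex I genes, with 15 above 0, 16 below and a median of -0.02. This list does not hold ND4L, a complex I gene with a larger change that did not pass, described below. Of 23 measured genes of complexes II to V, 0 passed by limma and the median was -0.05. An unadjusted p under 0.05 was found for 1 of the 23, where 12.9% of all features had one.

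Immune genes changed in both directions. B-G, of the butyrophilin-like membrane proteins encoded in the chicken major histocompatibility complex, had the largest fall. It was at 9.21, 9.65 and 6.06 in White Leghorn and 3.75, 4.54 and 5.04 in Hwangbong. WL 3 lay much closer to the Hwangbong birds than to WL 1 and WL 2. B-G fell by 3.86 ± 0.72 (adjusted p = 0.0308 by limma), and its call was lost without WL 1, WL 2 or any Hwangbong array, at an adjusted p of up to 0.109. It was also lost with the 6 arrays alone (0.153) and with trended, robust variance moderation (0.0524). The B-G genes form a variable multigene family, and whether the probes match the copies of each breed equally was not tested. BG1, from the same family, was at 7.36, 4.75 and 5.98 in White Leghorn and 7.12, 6.64 and 6.74 in Hwangbong and did not pass (adjusted p = 0.571). The list of 18 measured antigen presentation genes holds B-G, described above as butyrophilin-like, and no other gene of that list passed. Of the others, B2M, the shared light chain of class I molecules, lay between 10.58 and 10.73 in White Leghorn and at 11, 11.06 and 11.21 in Hwangbong, with a change of 0.44 ± 0.12 that did not pass (adjusted p = 0.126).

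TLR2, the receptor for bacterial lipoproteins, was at 4.8, 5.25 and 5.59 in White Leghorn and 6.51, 7.09 and 6.98 in Hwangbong. The lowest Hwangbong bird was clear of the highest White Leghorn bird. TLR2 rose by 1.65 ± 0.22 (adjusted p = 0.00388) and passed in all 15 fits that left out an array, although not with the 6 arrays alone (0.0535). It was the single passing gene of 22 measured toll-like receptors and adaptors. Chickens carry duplicated copies of this receptor, and the feature annotated TLR2A was at 6.27, 7.1 and 6.8 in White Leghorn and 7.12, 6.98 and 7.18 in Hwangbong, with overlapping birds and an adjusted p of 0.557.

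Interferon response genes held 1 call, and most of their changes lay above 0. LY6E, an interferon-induced membrane protein, was at 11.45, 11.44 and 11.47 in White Leghorn and 12.32, 12.67 and 12.63 in Hwangbong. It rose by 1.09 ± 0.19 (adjusted p = 0.0247). The call was lost without any White Leghorn array, Hw 2 or Hw 3, at an adjusted p of up to 0.108, and held with the 6 arrays alone (0.0251). Of 32 measured interferon response genes, LY6E was the 1 that passed. Changes lay above 0 for 30, as for 47.6% of all features, and the median change was 0.46 beside -0.0124 over all features. In 18 of the 32 every Hwangbong bird lay above every White Leghorn bird, a property shared by 9.3% of all features. This list too was chosen with earlier results of these data known, and its genes were read in the same birds. The counts are therefore not independent and cannot show that these genes changed as a group. The same limit holds for the other lists. Averaged over the list, the level was 7.37, 7.51 and 7.5 in White Leghorn and 7.73, 7.97 and 8.19 in Hwangbong.

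MX1, an antiviral GTPase, was at 6.96, 6.39 and 7.28 in White Leghorn and 7.75, 8.04 and 8.94 in Hwangbong, with a change of 1.37 ± 0.58 that did not pass (adjusted p = 0.337). Its mean was 8.24 in Hwangbong, 8.37 in Hyunin Black, 5.93 in Yeonsan Ogye and 6.84 in Hoengseong Yakdak. The interferon list as a whole was not read in those 3 breeds. CMPK2, a mitochondrial nucleotide kinase induced by interferon, was between 7.59 and 7.63 in White Leghorn and between 8.46 and 9.07 in Hwangbong (1.12 ± 0.46, adjusted p = 0.323). GBP4L, annotated as a guanylate-binding protein, was between 7.71 and 8.38 in White Leghorn and between 8.68 and 9.18 in Hwangbong (1.02 ± 0.27, adjusted p = 0.114). The errors pool the spread within all 5 breeds.

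**Figure D3:**
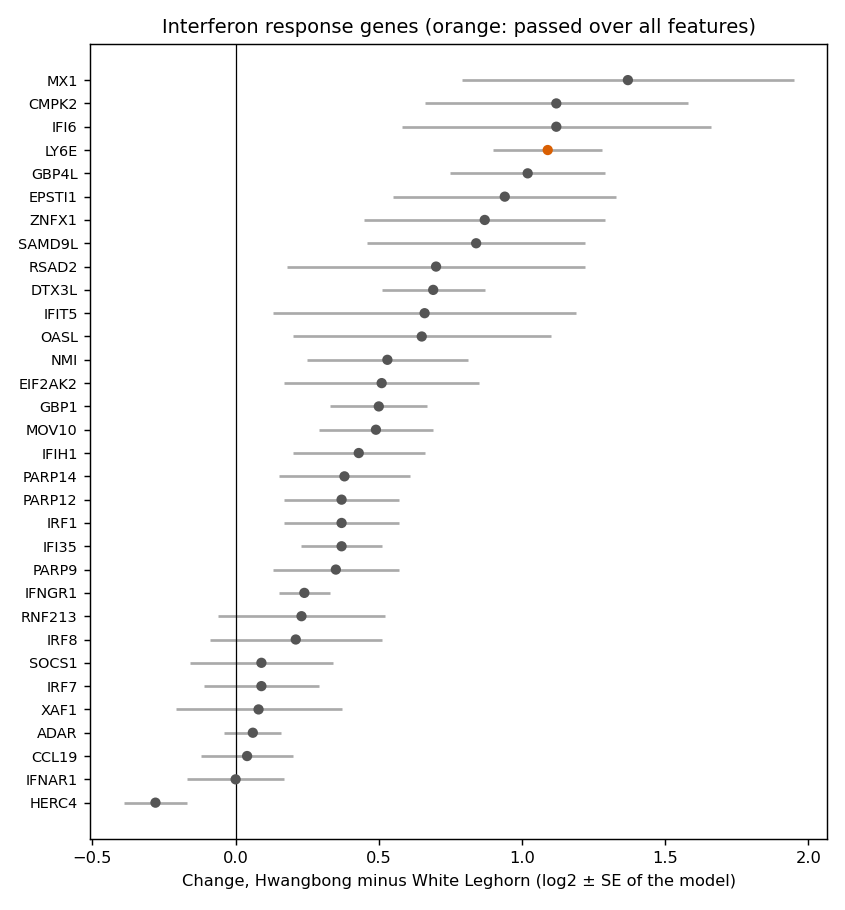
Change (x axis, Hwangbong minus White Leghorn, log2, with the standard error of the model as bars) for the 32 measured interferon response genes, ordered by change. LY6E, in orange, passed at an adjusted p under 0.05, and 30 of the 32 points lie above 0.

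Markers of immune and vascular cells were read beside these genes. The mean level of 17 measured macrophage markers was 8.49, 8.6 and 8.52 in White Leghorn and 8.75, 8.8 and 8.8 in Hwangbong. Of the 17, 15 lay above 0, 10 had every Hwangbong bird above every White Leghorn bird, beside 9.3% of all features, and the median change was 0.26. By limma 0 passed while 8 had an unadjusted p under 0.05, beside 12.9% of all features. The limit given for the interferon list holds for these counts too. C1QC, a complement component made by liver macrophages, was between 10.63 and 10.96 in White Leghorn and between 11.27 and 11.46 in Hwangbong (0.56 ± 0.17, adjusted p = 0.175). MERTK, a receptor for the uptake of dying cells, was between 7.26 and 7.38 against 7.82 and 7.91 (0.52 ± 0.12, adjusted p = 0.0681). LYZ of the same list lay on the other side, between 5.73 and 6.08 in White Leghorn and between 4.93 and 5.57 in Hwangbong. In bulk liver, more cells of a type and more RNA per cell cannot be told apart, and the part of these cells in the changes of TLR2, LY6E and the interferon list was not tested.

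UBASH3A, a suppressor of T-cell receptor signalling, was the single passing gene of 24 measured T and NK cell markers, where 0.579% of all features passed. It was at 5.37, 5.56 and 5.73 in White Leghorn and 6.25, 6.24 and 6.33 in Hwangbong and rose by 0.72 ± 0.15 (adjusted p = 0.0472), but kept its call only in the fits that dropped Ya 2, Ya 3 or Og 1, with an adjusted p reaching 0.154 in the others. The list mean was 5.8, 5.92 and 5.95 in White Leghorn and 6.06, 6.05 and 6.35 in Hwangbong. Changes lay above 0 for 19 of 24, beside 47.6% of all features, with a median of 0.28 beside -0.0124. In 5 of the 24 every Hwangbong bird lay above every White Leghorn bird, beside 9.3% of all features. By limma 7 had an unadjusted p under 0.05, beside 12.9% of all features. The limit given for the interferon list holds here too. CD3E, part of the T-cell receptor complex, was between 7.0 and 7.21 in White Leghorn and between 7.24 and 7.84 in Hwangbong (0.4 ± 0.19, adjusted p = 0.405).

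CHIR-B6, an immunoglobulin-like receptor of a large chicken family, was at 4.95, 6.3 and 5.87 in White Leghorn and 6.64, 7.33 and 7.38 in Hwangbong at 1 feature. It rose by 1.41 ± 0.29 (adjusted p = 0.0482) and passed only in the fits without WL 2 or Hw 1, with an adjusted p of up to 0.175 in the others. A second feature of CHIR-B6 had a change of 0.42 ± 0.13 and did not pass (adjusted p = 0.184). CD69L likewise rose at 1 feature, by 1.11 ± 0.2 (adjusted p = 0.0261, and up to 0.11 without WL 1, WL 3, Hw 2 or Hw 3), and had a change of 0.08 ± 0.19 at another (adjusted p = 0.906). None of the 20 measured endothelial markers passed. Their median change was 0.12, 14 lay above 0 and 5 had an unadjusted p under 0.05, which 12.9% of all features had. PECAM1 was between 6.6 and 6.86 in White Leghorn and between 7.2 and 7.35 in Hwangbong (0.55 ± 0.13, adjusted p = 0.0855). Of 14 measured erythroid genes, 11 lay above 0, beside 47.6% of all features, with a median of 0.14. By limma 0 of them passed and 2 had an unadjusted p under 0.05, beside the same 12.9%. HBAD, an alpha-type globin, was at 8.95, 8.85 and 9.06 in White Leghorn and 10.38, 9.79 and 10.11 in Hwangbong (1.14 ± 0.34, adjusted p = 0.167), while HBA1 overlapped between the breeds (0.16 ± 0.23). Markers of heterophils, the avian counterpart of neutrophils, had 8 of 11 changes below 0 and a median of -0.31. By limma 0 of them passed and 2 had an unadjusted p under 0.05, beside the same 12.9%.

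**Figure D4:**
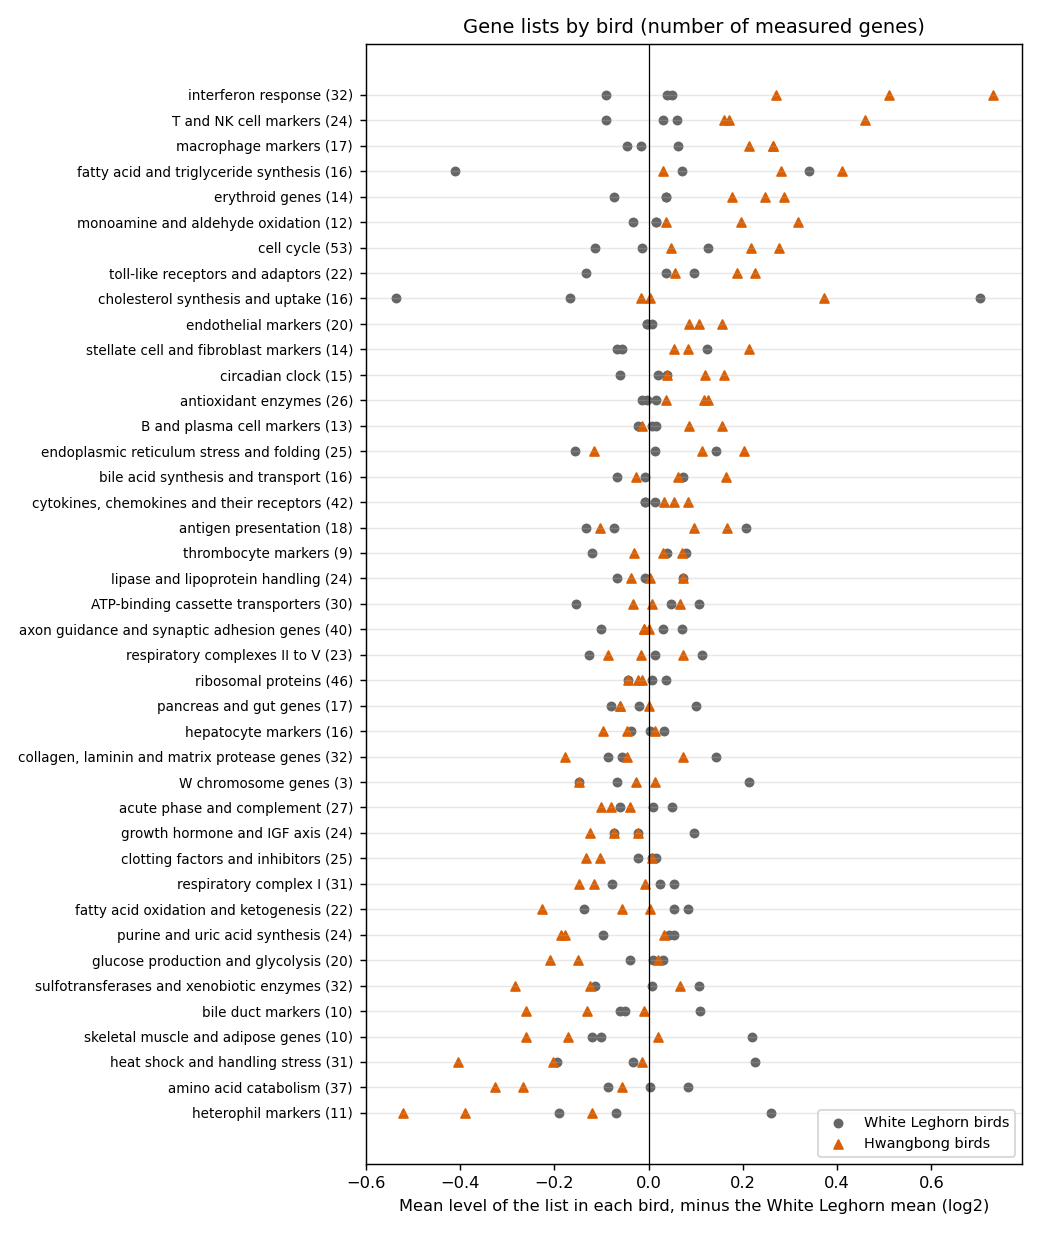
Mean level of each gene list in each bird (x axis, log2, minus the mean of the 3 White Leghorn birds), with the number of measured genes in parentheses, circles for White Leghorn and triangles for Hwangbong, ordered by the mean change. The 3 Hwangbong birds lie to the right of the 3 White Leghorn birds for the interferon, T and NK cell, macrophage, erythroid and endothelial lists. The same holds for the cytokine list. It also holds for the antioxidant list and the monoamine and aldehyde oxidation list, so it is not particular to immune, blood and vascular genes. Both groups overlap for most metabolic lists. The circadian clock list holds FBXO21, which is not described here as a clock gene. Its rise of 1.27 was the largest among the 15 measured genes of that list.

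SMARCE1, a subunit of the SWI/SNF chromatin remodelling complex, was at 7.61, 7.75 and 7.65 in White Leghorn and 8.47, 8.61 and 8.52 in Hwangbong. SMARCE1 rose by 0.86 ± 0.11 (adjusted p = 0.00288) and passed in all 15 fits. SMARCD2, from the same complex, was between 8.14 and 8.52 in White Leghorn and between 8.89 and 8.93 in Hwangbong, a rise of 0.56 ± 0.11 (adjusted p = 0.0374). Its adjusted p was up to 0.111 without WL 2, WL 3, Og 3, Bl 2, Ya 2 or any Hwangbong array. Both were singled out after their values were seen, as were the genes NFASC, MMD, KCNK7, LONP2, CPAMD8 and F3.

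BRF1, a subunit of the transcription factor that recruits RNA polymerase III, was between 5.62 and 5.81 in White Leghorn and between 6.67 and 7.16 in Hwangbong and rose by 1.18 ± 0.17 (adjusted p = 0.00607), passing in all 15 fits. A second BRF1 feature had a change of 0.31 ± 0.15 and did not pass (adjusted p = 0.42), so the features of this gene disagreed. SNORD12C, a small nucleolar RNA that guides methylation of ribosomal RNA, was at 8.47, 8.19 and 8.08 in White Leghorn and 6.68, 6.92 and 6.8 in Hwangbong. It fell by 1.45 ± 0.19 (adjusted p = 0.00388) and passed in all 15 fits and with the 6 arrays alone. MIR1719, a chicken microRNA gene, rose by 1.11 ± 0.18 (adjusted p = 0.0147, and up to 0.0775 without WL 1, WL 3, Hw 2 or Hw 3). The array value of a microRNA gene need not follow its mature form.

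Several further falls concerned signalling and membrane genes. ENOX1, a cell-surface NADH oxidase, was at 6.36, 6.54 and 6.34 in White Leghorn and 5.6, 5.07 and 5.44 in Hwangbong. It fell by 1.05 ± 0.13 (adjusted p = 0.0033) and passed in all 15 fits, although not with the 6 arrays alone (0.0639). RAB23, a small GTPase that restrains hedgehog signalling in the mouse, was at 6.96, 6.57 and 6.48 in White Leghorn and 5.7, 5.6 and 5.15 in Hwangbong, and fell by 1.19 ± 0.19 (adjusted p = 0.0103), passing in all 15 fits. RALGPS1, an activator of Ral GTPases, was between 8.02 and 8.34 in White Leghorn and between 6.95 and 7.48 in Hwangbong. It fell by 1.03 ± 0.16 (adjusted p = 0.0103) and lost its call only without Hw 2 (0.0613). PIGP, needed for the first step of glycosylphosphatidylinositol anchor synthesis, fell by 1.07 ± 0.19 (adjusted p = 0.0214, and up to 0.0897 without WL 2, WL 3, Hw 2 or Hw 3).

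CPAMD8, a relative of complement C3 and alpha-2-macroglobulin, was between 6.12 and 6.34 in White Leghorn and between 5.16 and 5.36 in Hwangbong, a fall of 0.95 ± 0.11 (adjusted p = 0.00178) that passed in all 15 fits. F3, tissue factor, the starter of clotting, was low in both breeds, between 4.93 and 5.31 in White Leghorn and between 4.29 and 4.57 in Hwangbong. It fell by 0.69 ± 0.11 (adjusted p = 0.014), and was lost without WL 1 or WL 2 (up to 0.0622). Among smaller rises, MMD, a membrane protein named for its appearance when monocytes mature into macrophages, was between 9.16 and 9.19 in White Leghorn and between 9.88 and 10.14 in Hwangbong. MMD rose by 0.84 ± 0.1 (adjusted p = 0.00221) and passed in all 15 fits. KCNK7, a member of the tandem-pore potassium channel family, was between 8.32 and 8.42 in White Leghorn and between 9.12 and 9.24 in Hwangbong, and rose by 0.83 ± 0.12 (adjusted p = 0.00671), also passing in all 15. LONP2, a protease of peroxisomes, rose by 0.74 ± 0.12 (adjusted p = 0.014, and up to 0.0775 without WL 2 or Hw 2).

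Core metabolic lists held few or no passing genes. An unadjusted p under 0.05 was found for 12.9% of all features, the share beside which the counts of such genes in these lists are to be read. Of 16 measured genes of fatty acid and triglyceride synthesis, 0 passed by limma and 2 had an unadjusted p under 0.05. FASN, fatty acid synthase, was at 11.35, 12.14 and 12.55 in White Leghorn and 12.45, 12.26 and 12.88 in Hwangbong (0.52 ± 0.27, adjusted p = 0.458). Of 16 genes of cholesterol synthesis and uptake, 0 passed by limma and 3 had an unadjusted p under 0.05. The mean level of this list spread from 8.93 to 10.17 within White Leghorn alone, a range that held all 3 Hwangbong birds.

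Of 22 genes of fatty acid oxidation, 0 passed by limma and 4 had an unadjusted p under 0.05, again beside 12.9% of all features. PDK4, a kinase that shuts off pyruvate oxidation in fasting, was at 7.61, 7.9 and 6.88 in White Leghorn and 4.97, 6.42 and 5.86 in Hwangbong, with a change of -1.72 ± 0.39 (adjusted p = 0.0681). ECI1, an isomerase of mitochondrial fatty acid oxidation, was between 9.46 and 9.91 in White Leghorn and between 10.16 and 10.48 in Hwangbong, with a change of 0.67 ± 0.14 (adjusted p = 0.0527). Of 20 genes of glucose production and glycolysis, 0 passed by limma and 6 had an unadjusted p under 0.05. PCK1, the key enzyme of glucose production, was at 8.75, 8.63 and 8.52 in White Leghorn and 10.46, 6.11 and 5.38 in Hwangbong, so that the Hwangbong birds lay on both sides of White Leghorn. PCK1 and PDK4 respond to feeding, and the time between the last meal and sampling is not given in the labels.

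No gene on the list of amino acid catabolism passed, a list that does not hold ALDH7A1. Of its 37 measured genes, 31 lay below 0 and 6 above, the median change was -0.14, and 8 had every Hwangbong bird below every White Leghorn bird, where 9.42% of all features did. By limma 0 passed and 11 had an unadjusted p under 0.05, which 12.9% of all features had. As for the interferon list, these counts cannot show that the genes changed as a group. KMO, of the tryptophan breakdown route, was between 10.35 and 10.43 in White Leghorn and between 9.57 and 10.02 in Hwangbong, with a change of -0.55 ± 0.12 (adjusted p = 0.0523). HAL, which starts histidine breakdown, was between 9.3 and 9.7 against 8.05 and 9.03, with a change of -0.97 ± 0.35 (adjusted p = 0.244).

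No gene passed on the lists of clotting and of acute phase proteins, which do not hold F3. Of 25 clotting factors and inhibitors, 16 lay below 0 and 10 had every Hwangbong bird below every White Leghorn bird, beside 9.42% of all features, with a median of -0.11. By limma 0 passed and 8 had an unadjusted p under 0.05, beside 12.9% of all features. These counts too cannot show a change of the group. F9, a clotting factor made by hepatocytes, was at 12, 11.67 and 11.94 in White Leghorn and between 11.56 and 11.64 in Hwangbong (-0.28 ± 0.11, adjusted p = 0.272). Of 27 acute phase and complement genes, 16 lay below 0 with a median of -0.14, and 0 passed by limma while 8 had an unadjusted p under 0.05. Of 46 ribosomal protein genes, 0 passed by limma, 4 had an unadjusted p under 0.05, and the median was -0.02.

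The levels were also read in the 3 other native breeds. The contrasts of Hwangbong with each breed share the 3 Hwangbong arrays, so their values are given side by side and are not independent. Hwangbong differed from Yeonsan Ogye at 58 features (0.317%), from Hyunin Black at 68 (0.371%) and from Hoengseong Yakdak at 267 (1.46%). Without Hw 2 these counts were 18, 32 and 130, and without Hw 3 they were 29, 42 and 131. They were also 30 without Og 2 and 32 without Ya 3 for Yeonsan Ogye, 30 without Bl 1, 31 without Bl 2 and 44 without Hw 1 for Hyunin Black, and 132 without Ya 2 for Hoengseong Yakdak. Of the 106 features, the Hwangbong mean lay outside the range of the 4 other breed means for 86 and the White Leghorn mean for 69. These features were chosen for a difference between Hwangbong and White Leghorn, which by itself favours outer means for both breeds. The share over all features was not computed, so the counts do not show a trait of either breed.

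ENOX1 had breed means of 6.52 in Yeonsan Ogye, 6.22 in Hyunin Black and 6.95 in Hoengseong Yakdak beside 5.37 in Hwangbong. It passed in Hwangbong against each of them, at adjusted p of 0.00215, 0.0137 and 0.000124 by limma. FOLH1 had means of 5.63, 6.01 and 5.89 in these breeds, in the same order, beside 6.85 in Hwangbong, and also passed against each (0.00215, 0.0202 and 0.00352). NAALAD2 (0.0385, 0.0464 and 0.00974), PEX5L (0.00215, 0.00263 and 0.00236), EEF1AKMT1 (0.0104, 0.00368 and 0.00352), RALGPS1 (0.0124, 0.0064 and 0.0124) and SMARCE1 (0.00313, 0.00589 and 0.00187) did so too. For each of these genes Hwangbong differed from all 4 breeds, White Leghorn included. For NAALAD2 the native means of 6.07, 6.12 and 6.04, in the same order, lay between White Leghorn at 5.33 and Hwangbong at 6.77. White Leghorn was lower than each of these 3 breeds too, at adjusted p of 0.0317, 0.027 and 0.0254 by limma. The NAALAD2 difference was thus not particular to Hwangbong. Nor was that of FBXO21, with native means of 7.63, 7.2 and 7.62, in the same order, between White Leghorn at 6.78 and Hwangbong at 8.06. By limma Hwangbong passed against Hyunin Black (adjusted p = 0.0033) and Hoengseong Yakdak (0.0498) but not Yeonsan Ogye (0.1). White Leghorn was lower in FBXO21 than Yeonsan Ogye (0.00389) and Hoengseong Yakdak (0.00232), while Hyunin Black against White Leghorn did not pass (0.133). How these single-gene calls against the native breeds depend on single arrays is not given here.

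LIPC had means of 8.06, 7.84 and 8.27 in Yeonsan Ogye, Hyunin Black and Hoengseong Yakdak, between those of Hwangbong at 6.44 and White Leghorn at 9.07. The birds overlapped, since Bl 1, at 7.01, lay below Hw 1, at 7.04. LIPC passed in Hwangbong against Hoengseong Yakdak (-1.83, adjusted p = 0.0231) and not against Yeonsan Ogye (0.0862) or Hyunin Black (0.155). TLR2 had means of 5.51, 5.87 and 5.42 beside 6.86 in Hwangbong and passed against Yeonsan Ogye (0.0183) and Hoengseong Yakdak (0.00405) but not Hyunin Black (0.0818). ROBO1 had means of 8.45, 8.07 and 7.8 beside 6.24 in Hwangbong, and adjusted p of 0.0521, 0.116 and 0.104, so it passed against White Leghorn alone.

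For other genes Hwangbong resembled some native breeds in level. NDUFA8 was at 6.57 in Hwangbong and 6.82 in Hoengseong Yakdak, which did not pass (adjusted p = 0.627), and at 7.73 in Yeonsan Ogye, which did (0.0124). SULT was at 8.29 in Hwangbong and 8.81 in Yeonsan Ogye, with adjusted p of 0.795, and at 11.6 in Hoengseong Yakdak, against which it passed (-3.31, adjusted p = 0.00509). LY6E was at 12.54 in Hwangbong and 12.28 in Hyunin Black (0.775), whereas Yeonsan Ogye at 11.39 (0.0262) and Hoengseong Yakdak at 11.29 (0.00509) lay near White Leghorn at 11.45. MAOA was at 9.28 in Hwangbong and 8.92 in Hyunin Black (0.85), and at 6.67 in each of Yeonsan Ogye (0.00482) and Hoengseong Yakdak (0.00236). White Leghorn, at 7.56, lay above Yeonsan Ogye and Hoengseong Yakdak and below Hwangbong and Hyunin Black. B-G was at 3.81, 5.39 and 3.6 in Yeonsan Ogye, Hyunin Black and Hoengseong Yakdak beside 4.44 in Hwangbong and 8.31 in White Leghorn. By limma B-G passed in Yeonsan Ogye (-4.49, adjusted p = 0.0234) and Hoengseong Yakdak (-4.71, 0.0118) against White Leghorn. The breeds were not all apart, since Bl 1, at 6.45, lay above WL 3, at 6.06, and Hyunin Black against White Leghorn did not pass (-2.92, adjusted p = 0.136). ADAMTS17 had native means from 5.13 to 5.62 beside 6.94 in White Leghorn, and NXPH2 from 4.41 to 4.88 beside 5.96. Against White Leghorn by limma, ADAMTS17 passed in Hyunin Black (adjusted p = 0.0463) and Hoengseong Yakdak (0.0118) but not Yeonsan Ogye (0.0999). NXPH2 passed in Yeonsan Ogye (0.0146), Hyunin Black (0.0382) and Hoengseong Yakdak (0.0498). The falls of B-G, ADAMTS17 and NXPH2 were thus not particular to Hwangbong. Nor were those of RAB23 and SNORD12C, which by limma also fell in Yeonsan Ogye against White Leghorn (adjusted p = 0.0227 and 0.042). In the same direction as Hwangbong against White Leghorn, CD69L passed in Yeonsan Ogye (0.0234), and MIR1719 (0.0146) and NSMF (0.0444) in Hyunin Black. TPPP (0.0386), NDUFA8 (0.0204) and KCNK7 (0.0118) did so in Hoengseong Yakdak.

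**Figure D5:**
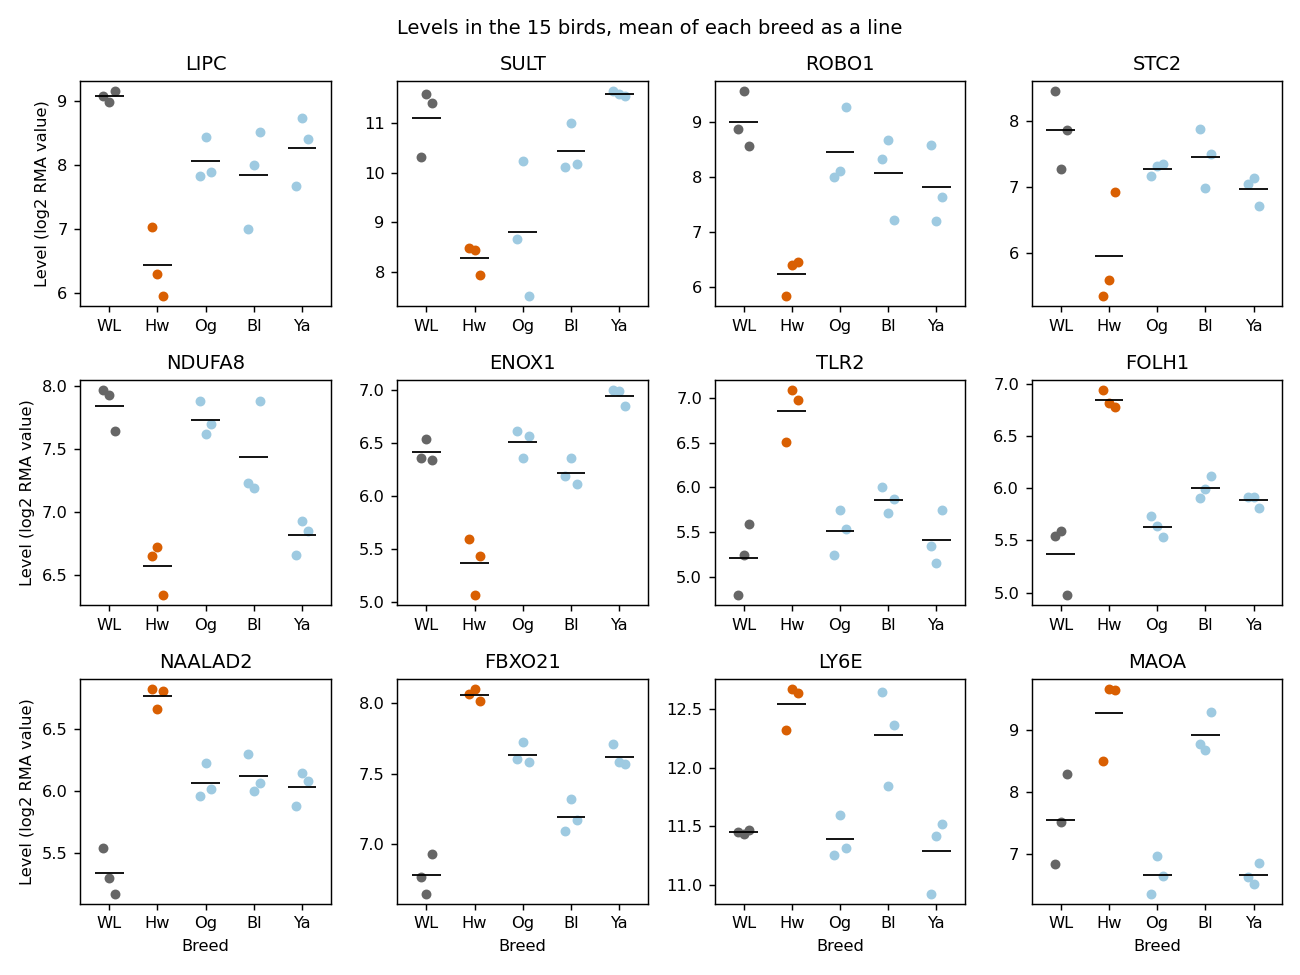
Level in each of the 15 birds (y axis, log2 RMA value, scaled per gene) for 12 passing genes, with breeds on the x axis and the mean of each breed as a line. Hwangbong lies apart from the other 4 breeds for ENOX1, TLR2, FOLH1, NAALAD2 and FBXO21. It lies beside Hoengseong Yakdak for NDUFA8, beside Hyunin Black for LY6E and MAOA, and has the lowest mean for LIPC and ROBO1. For LIPC the bird Bl 1, at 7.01, lies just below Hw 1, at 7.04. For NAALAD2 and FBXO21 White Leghorn also lies apart, below the other breeds.

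Some large differences did not pass. ND4L, a mitochondrially encoded complex I subunit, was at 5.52, 5.57 and 5.42 in White Leghorn and 9.28, 9.45 and 9.17 in Hwangbong, a change of 3.79 ± 1.04 (adjusted p = 0.126). The 6 birds were separated by far more than their spread, while the Hoengseong Yakdak birds lay at 9.49, 11.39 and 4.97, and the model's error pools the spread of all breeds. Yeonsan Ogye lay near White Leghorn, at 5.4, 4.7 and 4.55, and Hyunin Black near Hwangbong, at 9.36, 9.63 and 9.2. The ND4L level of Hwangbong was thus not particular to that breed. AMPH, amphiphysin, which bends membranes during endocytosis, had a change of -2.64 ± 0.63 (adjusted p = 0.0797), with Hw 1 at 6.44 and the other two Hwangbong birds at 4.0 and 3.85. COMTD1, a predicted methyltransferase, had a change of 1.96 ± 0.43 (adjusted p = 0.0651), with White Leghorn birds at 8.53, 9.02 and 10.99. At the threshold, MYO9A lay just inside with a change of 0.53 ± 0.11 and an adjusted p of 0.05 after rounding, and up to 0.182 when 1 array was left out, where it passed only without Bl 1 or Bl 2. EPHX1L at 0.47 ± 0.1 (0.0504) and TP53INP1 at 0.8 ± 0.17 (0.0512) lay just outside. Of the passing features 34 had no symbol, including the largest rise of all, at 7.04 ± 0.21 (SD, n = 3) in White Leghorn and 10.25 ± 0.46 in Hwangbong, a change of 3.2 ± 0.37 (adjusted p = 0.00178 by limma).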

How the data were processed

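Liver total RNA was labelled as biotinylated single-stranded cDNA and hybridised to Affymetrix chicken gene arrays, per the labels' protocols. Per the submitters' processing notes, the authors computed the deposited log2 values by RMA with version 1.3.1 of Affymetrix Expression Console. How probes were summarized and filtered is not given in the sources used here, and detection calls were not used. The table held 18308 features in 15 arrays, with 0 missing values. Platform annotation gave 1 symbol to 12300 features, several to 256 and none to 5752. RefSeq names (GRCg7b) changed 0 symbols and gave gene order.

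With limma 3.58.1 (R 4.3.3), a linear model of the 15 arrays estimated the 5 breed means (lmFit, eBayes; 10 residual and 3.89 prior degrees of freedom). Tests were two-sided. P-values were adjusted by Benjamini-Hochberg over all features, with a pass under 0.05. The median standard error was 0.15. Precision is limited by the number of arrays: with 3 birds per breed, no exact permutation p can be smaller than 0.1. The labels call the arrays biological replicates and name no batch. The samples and the 41 gene lists (1336 symbols, 893 measured) were chosen with earlier results of these data known. Named genes were the 15 largest passing rises and falls with separated birds and 1 symbol, bare locus names excluded (LOC768589 was left out), every passing list member and, as values, list members with small p. For lists, the feature with the highest mean stood for a gene. The procedure was tested on simulated data. Alternatives were a 1.5-fold minimum, an unadjusted p with a 2-fold change, other variance moderation, array weights, further quantile normalisation, median centring, dropping the features with the lowest means (1 in 3), 1 feature per gene, the 6 arrays alone, a block for replicate number and leaving out each array.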

Additional observations from a re-analysis of the deposited data

How the results depend on the processing

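The 106 passing features of Hwangbong against White Leghorn became 99 with a 1.5-fold minimum, 126 with trended and robust moderation, 90 after further quantile normalisation, 112 after median centring, 146 without the features of lowest mean (1 in 3) and 83 with 1 feature per gene. They became 264 with array weights, 180 with an unadjusted p and a 2-fold change, and 40 with the 6 arrays alone. Leaving out each array gave 40 to 127 against White Leghorn, 18 to 75 against Yeonsan Ogye, 30 to 67 against Hyunin Black and 130 to 295 against Hoengseong Yakdak. The cause was not tested, except that the fit of 6 arrays has fewer birds and each fit that left out an array has 1 bird fewer. Of the 33 named genes, 0 reversed, 19 lost their call with the 6 arrays alone, 3 after quantile normalisation and 3 with trended and robust moderation, and of 495 leave-one-out values 126 lost it. Of 287 recomputed mean changes of the gene lists, 0 moved by more than the SD between birds. For the values that left out 1 bird this outcome was fixed in advance. Dropping 1 of 3 birds cannot shift a mean by that much, so it does not show that the lists are stable. The labels number the birds of each breed and do not say whether these numbers pair them. Deviations of same-numbered White Leghorn and Hwangbong birds correlated at 0.0672, 0.0229 and 0.126 across features. Of 3 Hwangbong birds, 2 were closest to the White Leghorn bird of their number. Replicate 1 had the lowest array weight of its breed in all 5 breeds, from 0.592 for WL 1 to 0.864 for Hw 1. What birds of the same number share was not tested. With the replicate number as a block, the counts were 113, 49, 60 and 260 against White Leghorn, Yeonsan Ogye, Hyunin Black and Hoengseong Yakdak. Levels near the bottom of the scale were not shown to exceed background.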
